A study of Mus musculus with 12 samples.

Results

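Fibro-adipogenic progenitors (FAPs) are the mesenchymal cells that lie between skeletal muscle fibres, and 10 genes that are commonly used to identify them or to name their progenitor states were followed across the series. The genes, chosen by name, are Pdgfra, Osr1, Ly6a, Cd34, Pi16, Dpp4, Mfap5, Pcolce2, Cxcl14 and Tcf7l2. All 10 were found among the 55335 gene rows of the count files, and all 10 were among the 16597 genes with enough reads to be tested.

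The cells came from limb muscle of mice, were sorted by flow cytometry as live, lineage-negative, Vcam-negative and Sca1-positive cells, and were cultured in alpha-MEM that held 20% fetal bovine serum (FBS). The design asks which genes lie downstream of Bap1 and of Smn in these cells. There were 4 groups with 3 libraries each. WT cultures came from wild-type mice and received ethanol, so the mouse genotype as well as 4-OHT differs between WT and the other groups. Bap1KO cultures received 1 µM 4-hydroxytamoxifen (4-OHT) to delete Bap1, the gene of a nuclear deubiquitinase that acts on histone H2A. The protocol text, which all groups share, replaces the medium 24 h after 4-OHT exposure. Smn1OE cultures were given 4-OHT plus an expression vector of human SMN, which loads Sm proteins onto spliceosomal snRNAs, and Smn1OE_K186R cultures received 4-OHT and a vector for SMN with the K186R substitution. The last 2 are called the SMN groups here. The treatment text names Rosa-CreER as the Cre driver of the deletion, whereas the source label of the 3 groups given 4-OHT names Prrx1Cre;Bap1f/f mice, and Prrx1Cre acts in limb mesenchyme. No group carried an empty vector, none received 4-OHT with Bap1 intact, and none received SMN without 4-OHT. The labels do not say whether libraries of a group came from separate animals or cultures, so p-values measure the spread between these libraries only.

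FAPs give rise to fat and connective tissue cells and supply signals and matrix to the muscle stem cells beside them. Their usual surface definition joins PDGFRα, Sca-1 and CD34. Single-cell studies commonly divide FAPs into a Dpp4 and Pi16 type, which resembles a fibroblast progenitor found in many tissues and lies in the connective tissue sheets, and a Cxcl14 type, which is more differentiated and lies between the fibres.

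The group means of the 10 markers followed 3 patterns. Pdgfra, Osr1, Ly6a, Mfap5, Cxcl14 and Pi16 were highest in WT, lower in Bap1KO and lowest in the SMN groups. Tcf7l2 and Pcolce2 were highest in Bap1KO. Cd34 was lowest in Bap1KO and highest in the SMN groups. Dpp4 had too few reads to place. The promoters of 4 of these genes are shown because the genes stand for the first pattern (Pdgfra and Cxcl14) and the next (Tcf7l2 and Pcolce2). Each is the 250 bases before the RefSeq transcript start on the gene's strand, from RefSeq on GRCm38.p6, in lower case with matches to the searched motifs in capitals.
Pdgfra, chr5:75152001-75152250, plus strand: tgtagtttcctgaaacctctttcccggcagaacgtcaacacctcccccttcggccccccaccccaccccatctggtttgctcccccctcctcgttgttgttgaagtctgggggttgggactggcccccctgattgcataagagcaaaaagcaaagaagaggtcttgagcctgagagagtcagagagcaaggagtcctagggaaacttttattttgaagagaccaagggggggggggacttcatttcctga
Cxcl14, chr13:56296552-56296801, minus strand: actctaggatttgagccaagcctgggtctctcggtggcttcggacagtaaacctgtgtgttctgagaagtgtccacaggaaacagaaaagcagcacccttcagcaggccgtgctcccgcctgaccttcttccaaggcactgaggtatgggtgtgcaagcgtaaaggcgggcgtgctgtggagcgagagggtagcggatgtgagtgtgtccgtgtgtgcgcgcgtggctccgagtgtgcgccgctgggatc
Tcf7l2, chr19:55741560-55741809, plus strand: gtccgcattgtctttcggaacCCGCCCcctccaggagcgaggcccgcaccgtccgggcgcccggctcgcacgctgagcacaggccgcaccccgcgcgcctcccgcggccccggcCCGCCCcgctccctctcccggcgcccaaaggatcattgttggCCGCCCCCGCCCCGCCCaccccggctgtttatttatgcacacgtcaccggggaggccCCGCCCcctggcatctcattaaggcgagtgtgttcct
Pcolce2, chr9:95637378-95637627, plus strand: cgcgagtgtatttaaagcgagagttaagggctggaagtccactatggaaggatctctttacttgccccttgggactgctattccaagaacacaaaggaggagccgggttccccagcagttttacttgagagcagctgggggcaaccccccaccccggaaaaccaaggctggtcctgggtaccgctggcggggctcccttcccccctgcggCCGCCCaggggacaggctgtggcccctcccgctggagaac

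The motifs, searched on both strands, were the TATA box (TATAAA), the CCAAT box (CCAAT), the GC box (GGGCGG), an AP-1 motif (TGANTCA), a TCF/LEF motif (CTTTGAT) and a TEAD motif (GGAATG). The Tcf7l2 sequence held 6 GC boxes, 2 of which overlap by a base, and the Pcolce2 sequence held 1. Neither the Pdgfra nor the Cxcl14 sequence held any of the 6 motifs. A GC box was present in 32.7% of the 32851 RefSeq promoter sequences of the same length. The Tcf7l2 sequence also had 30 CpG dinucleotides against 16 for Cxcl14, 10 for Pcolce2 and 4 for Pdgfra, beside a median of 6 over all sequences. Of the sequences not printed, that of Dpp4 held a TATA box and a TEAD motif, that of the other Tcf7l2 start a TATA box, that of Pi16 a CCAAT box, and that of Cd34 none of the 6. All 250 bases of the Pi16 sequence lie in exons of the GENCODE annotation, as do 27 bases of the printed Pcolce2 sequence and 2 of the Cd34 sequence. Among all sequences the shares were 12.4% for the TATA box, 33.8% for the CCAAT box, 6.75% for AP-1, 3.21% for TCF/LEF and 12.6% for TEAD. RefSeq sequences were found for 7 of the 10 markers, and the first of 2 starts is shown for Tcf7l2. The matches describe letters, not sites of binding.

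The markers spanned a wide range of abundance. Levels are in CPM, a gene's read count scaled by the TMM-adjusted size of its library, and are compared between genes per kb of exon. In WT, Ly6a stood at 737 ± 37.9 CPM per kb (SD, n = 3), above 99.7% of tested genes. Cxcl14 followed at 338 ± 141, then Mfap5 at 173 ± 22.3 and Osr1 at 23.1 ± 2.61 CPM per kb. Pdgfra (9.07 ± 1.5), Cd34 (6.05 ± 0.637), Pcolce2 (2.92 ± 0.0626) and Tcf7l2 (2.82 ± 0.0266 CPM per kb) came next, and Pi16 (0.428 ± 0.144) and Dpp4 (0.0267 ± 0.00238 CPM per kb) were last. No neighbours in this WT order overlapped in their library ranges. The order itself changed with the group. In Smn1OE, Mfap5 (47.4 ± 6.06 CPM per kb) stood above Cxcl14 (14.3 ± 7.02), and the library ranges of Cxcl14 and Osr1, and of Osr1 and Cd34, overlapped. Pdgfra stood between Osr1 and Cd34 in WT, and below Pcolce2 and Tcf7l2 in the other 3 groups. Among tested genes in WT, Cxcl14 lay above 99%, Mfap5 above 98.2%, Osr1 above 86.8% and Pdgfra above 72.4%. Cd34, Pcolce2 and Tcf7l2 lay above 64.9%, 51.3% and 50.7%, and Pi16 above 25.2%. Dpp4, with 10 to 12 reads per WT library, lay above 4.01%. Ly6a encodes Sca-1, which the sort required. Fmod, a tenocyte marker, stood at 93.5 ± 27.5 CPM per kb in WT. Such levels alone do not set FAPs apart from related cells.

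**Figure D1:**
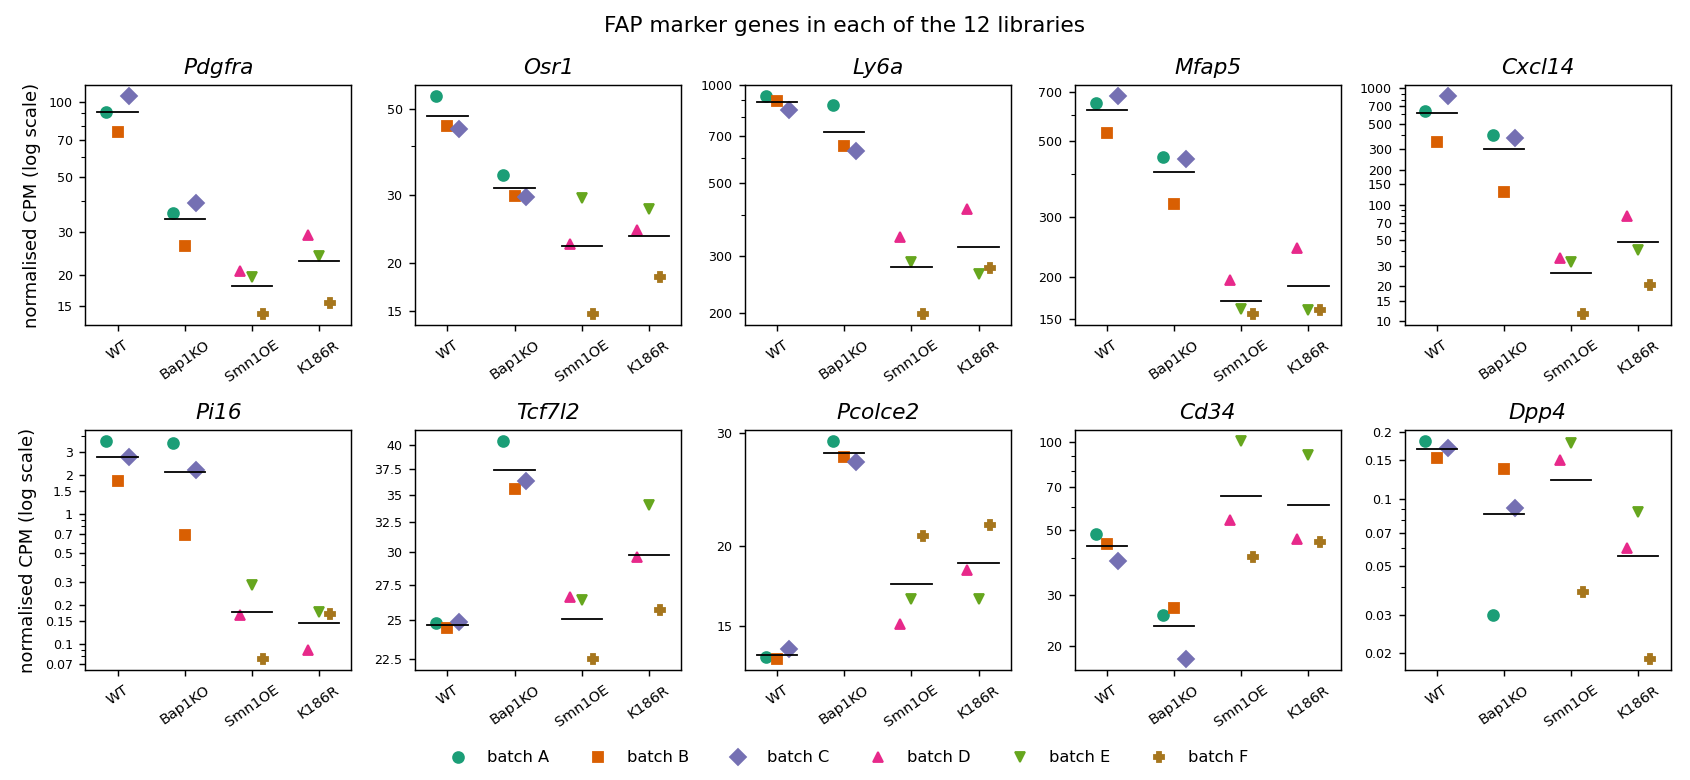
Normalised CPM of each marker (log scale, different for each gene) in the 12 libraries by group (K186R stands for Smn1OE_K186R), with points coloured by the culture media batch of the labels and a bar at the group mean of 3 libraries. Pdgfra, Osr1, Ly6a, Mfap5, Cxcl14 and Pi16 step down from WT to the SMN groups, Tcf7l2 and Pcolce2 peak in Bap1KO, and Cd34 is lowest in Bap1KO.

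Library totals lay between 51198342 and 68216089 counts, and the libraries separated first into those with and without an SMN vector (principal component 1, 59% of the variance). WT and Bap1KO shared culture media batches A, B and C, and the SMN groups shared batches D, E and F. Xist, the RNA of the inactive X chromosome, was at 197 to 305 CPM in every WT and Bap1KO library and at 0.113 CPM or less in the SMN groups, while the Y-linked Eif2s3y had reads only in the SMN groups (57.9 to 69.7 CPM). In every comparison of an SMN group with WT or Bap1KO, the vector, the batch and the sex-linked expression cannot be told apart. Bap1 fell by 0.32 on the log2 scale in Bap1KO, from 50.5 ± 1.32 to 40.3 ± 1.74 CPM (adjusted p = 0.0139), and counts at Smn1 were 6.88 to 7.18 log2 units higher in the SMN groups than in WT or Bap1KO. In Smn1OE the Bap1 mean was 49.1 ± 1.4 CPM, which was called higher than in Bap1KO (0.28, adjusted p = 0.00924) and differed from WT by -0.04 (adjusted p = 0.638). In Smn1OE_K186R it was 45.3 ± 3.15 CPM, with 0.17 against Bap1KO (adjusted p = 0.081) and -0.16 against WT (adjusted p = 0.0767). Lower Bap1 counts than in WT were thus called for Bap1KO and for neither SMN group, and whole-gene counts include transcripts that lack a deleted exon. In these bulk libraries, fewer cells that express a gene and less RNA per cell cannot be told apart.

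Pdgfra (ENSMUSG00000029231, chr5:75152292-75198215, GRCm38, plus strand) encodes the PDGF receptor alpha chain, the receptor most often used to sort FAPs. Its WT libraries stood at 91.0, 75.8 and 106 CPM in replicates 1 to 3, and its Bap1KO libraries at 35.8, 26.2 and 39.3 CPM. The Smn1OE libraries stood at 20.7, 19.6 and 13.9 CPM and the Smn1OE_K186R libraries at 29.1, 24.0 and 15.5 CPM. Every WT library lay above every other library, and the Smn1OE libraries lay below all Bap1KO libraries. Separation of 3 against 3 libraries was common, and each such statement on a marker is read beside its share of all tested genes. That share was 32.3% in Bap1KO against WT. It was 48.6% in Smn1OE and 43.7% in Smn1OE_K186R against Bap1KO, and 62.4% and 58.4% against WT. Pdgfra fell by 1.43 ± 0.23 (log2 fold change and standard error) in Bap1KO against WT, which is 2.69-fold (edgeR quasi-likelihood test with Benjamini-Hochberg adjustment over 16597 genes, used throughout; adjusted p = 0.00398). It fell by a further 0.90 ± 0.23 in Smn1OE against Bap1KO (adjusted p = 0.0111). In Smn1OE_K186R against Bap1KO it differed by -0.56 ± 0.23 (adjusted p = 0.0757), and replicate 1 of Smn1OE_K186R lay above Bap1KO replicate 2. That difference was called with no filter on low counts, with limma's voom, and without Bap1KO replicate 2 or Smn1OE_K186R replicate 1 (adjusted p down to 0.00516). Compared with WT, Pdgfra fell 5.03-fold in Smn1OE (-2.33, adjusted p = 2.51e-05) and 3.98-fold in Smn1OE_K186R (-1.99, adjusted p = 5.93e-05).

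Osr1 (ENSMUSG00000048387, chr12:9570116-9581500, plus strand), a zinc finger transcription factor of embryonic and activated FAPs, moved in the same order with smaller steps. It stood at 54.0, 45.1 and 44.3 CPM in WT, 33.7, 29.8 and 29.6 CPM in Bap1KO, 22.3, 29.4 and 14.7 CPM in Smn1OE, and 24.3, 27.6 and 18.4 CPM in Smn1OE_K186R. The groups did not overlap between WT and Bap1KO, or between Bap1KO and either SMN group. The log2 fold changes were -0.62 ± 0.21 in Bap1KO against WT (adjusted p = 0.0787), -0.49 in Smn1OE against Bap1KO (adjusted p = 0.0905) and -0.41 in Smn1OE_K186R against Bap1KO (adjusted p = 0.152), none of them called. All 3 were called with no filter on low counts (adjusted p = 0.00569, 0.0146 and 0.0459). The first was also called with DESeq2 (0.033), in a fit of the 2 groups (0.0144) and with the media batch as a block (0.000134), and the second with limma's voom (0.0386) and without Smn1OE replicate 2 (0.0162). Compared with WT, Osr1 fell 2.16-fold in Smn1OE (-1.11, adjusted p = 0.00108) and 2.04-fold in Smn1OE_K186R (-1.03, adjusted p = 0.00169).

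Ly6a (ENSMUSG00000075602, chr15:74994877-74998031, minus strand) encodes Sca-1, the surface protein that the sort required. It was the most abundant of the 10 markers per kb in every group, and its libraries stood at 929, 898 and 839 CPM in WT, 871, 652 and 630 CPM in Bap1KO, 343, 287 and 198 CPM in Smn1OE and 418, 263 and 274 CPM in Smn1OE_K186R. All SMN libraries lay below all Bap1KO libraries, while the WT and Bap1KO libraries overlapped. Ly6a differed by -0.31 ± 0.21 between Bap1KO and WT (adjusted p = 0.387). Against Bap1KO it fell 2.6-fold in Smn1OE (-1.38 ± 0.21, adjusted p = 0.000995) and 2.25-fold in Smn1OE_K186R (-1.17 ± 0.21, adjusted p = 0.00242). Ly6a belongs to a family of similar neighbouring genes, so its reads could be split among copies.

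Cd34 (ENSMUSG00000016494, chr1:194938819-194961279, plus strand), a sialomucin of FAPs and endothelial cells, took the opposite course in the SMN groups. It stood at 48.3, 44.9 and 39.1 CPM in WT, 25.5, 27.0 and 18 CPM in Bap1KO, 54.3, 101 and 40.4 CPM in Smn1OE and 46.4, 90.7 and 45.5 CPM in Smn1OE_K186R. Bap1KO libraries were below all others, and replicate 2 of both SMN groups, from batch E, was far above the rest. Against Bap1KO, Cd34 rose 2.77-fold in Smn1OE (1.47 ± 0.33, adjusted p = 0.00612) and 2.59-fold in Smn1OE_K186R (1.37 ± 0.33, adjusted p = 0.00904). Without replicate 2 of the SMN group these values were 1.01 and 0.96, and Cd34 was called higher in both comparisons under every alternative run. Against WT the SMN groups overlapped with it, and the differences of 0.57 (adjusted p = 0.166) and 0.47 (adjusted p = 0.251) were not called, though the first was with no filter on low counts (adjusted p = 0.0229). The difference of -0.91 ± 0.33 between Bap1KO and WT (adjusted p = 0.102) was called with no filter (0.00177), in a fit of the 2 groups (0.0175) and with the batch block. The endothelial markers were low, and their part in the Cd34 values was not tested. The 5 genes Pecam1, Cdh5, Kdr, Tek and Emcn summed to 5.16 to 6.41 CPM in WT, 2.94 to 3.96 CPM in Bap1KO and 2.58 to 3.18 CPM in the SMN groups. Most of that sum in WT and Bap1KO was Tek, with means of 4.94, 2.45 and 1.07 CPM in WT, Bap1KO and Smn1OE, while Kdr had means of 0.368, 0.481 and 0.926 CPM and Pecam1 of 0.27, 0.386 and 0.496 CPM.

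The 2 genes that name the Dpp4 and Pi16 type were scarce. Pi16 (ENSMUSG00000024011, chr17:29317680-29330593, plus strand), a secreted protease inhibitor family protein that names this type, stood at 3.63, 1.8 and 2.74 CPM in WT and 3.49, 0.686 and 2.16 CPM in Bap1KO. It was at 0.165, 0.283 and 0.0757 CPM in Smn1OE and 0.0902, 0.174 and 0.169 CPM in Smn1OE_K186R, which is 4 to 19 reads per library. All SMN libraries lay below all others. Against Bap1KO, Pi16 fell 11.7-fold in Smn1OE (-3.55 ± 0.60, adjusted p = 0.00145) and 14.5-fold in Smn1OE_K186R (-3.86 ± 0.62, adjusted p = 0.00131). The value for Smn1OE was -2.98 without Bap1KO replicate 1 and -4.08 without Smn1OE replicate 2, and that for Smn1OE_K186R was -3.29 without Bap1KO replicate 1, all called. The Pi16 difference between Bap1KO and WT was -0.37 ± 0.50 (adjusted p = 0.689) and turned to 0.05 without Bap1KO replicate 2.

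Dpp4 (ENSMUSG00000035000, chr2:62330073-62412231, minus strand) encodes a surface dipeptidyl peptidase and is the other name gene of this type. It had 12, 10 and 11 reads in the WT libraries, 2, 9 and 5 in Bap1KO, 10, 12 and 2 in Smn1OE and 4, 6 and 1 in Smn1OE_K186R. These are 0.0188 to 0.183 CPM. WT lay above Bap1KO and above Smn1OE_K186R without overlap. No difference of Dpp4 was called, the largest being -1.53 ± 0.68 in Smn1OE_K186R against WT (adjusted p = 0.0814). The few reads and a wide spread between replicates (biological coefficient of variation 0.381) both limit these values.

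Mfap5 (ENSMUSG00000030116, chr6:122505845-122529290, plus strand), a glycoprotein of elastic microfibrils and a marker of the same type, was abundant. Its biological coefficient of variation was 0.158, larger than for 51.3% of tested genes. Its libraries stood at 648, 529 and 681 CPM in WT, 449, 327 and 444 CPM in Bap1KO, 195, 161 and 155 CPM in Smn1OE and 243, 160 and 160 CPM in Smn1OE_K186R. WT, Bap1KO and the SMN groups formed 3 levels without overlap. Against Bap1KO, Mfap5 fell 2.39-fold in Smn1OE (-1.26 ± 0.18, adjusted p = 0.000703) and 2.17-fold in Smn1OE_K186R (-1.12 ± 0.18, adjusted p = 0.00136), while the step of -0.61 ± 0.18 from WT to Bap1KO missed the threshold (adjusted p = 0.0508) and was called with DESeq2 (0.0147), with no filter (0.00144), in a fit of the 2 groups (0.0441) and with the batch block.

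Pcolce2 (ENSMUSG00000015354, chr9:95637601-95698096, plus strand) enhances the removal of the C-terminal propeptide of procollagens and is also used as a marker of this type, yet it did not follow Pi16 or Mfap5. It stood at 13.4, 13.3 and 13.8 CPM in WT and at 29.1, 27.5 and 27.0 CPM in Bap1KO, a rise of 1.05 ± 0.12 or 2.06-fold (adjusted p = 0.00103, rank 31 of 16597 genes by p). It was at 15.1, 16.5 and 20.7 CPM in Smn1OE and 18.3, 16.5 and 21.5 CPM in Smn1OE_K186R. All SMN libraries lay below all Bap1KO libraries and above all WT libraries. Against Bap1KO, Pcolce2 fell 1.6-fold in Smn1OE (-0.68 ± 0.12, adjusted p = 0.00216) and 1.49-fold in Smn1OE_K186R (-0.57 ± 0.12, adjusted p = 0.00545). Compared with WT it was 1.29-fold higher in Smn1OE (0.37, adjusted p = 0.0265) and 1.39-fold higher in Smn1OE_K186R (0.47, adjusted p = 0.0075). Leaving out Smn1OE replicate 3, or WT replicate 1, 2 or 3, ended the call for Smn1OE against WT (highest adjusted p = 0.142).

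Cxcl14 (ENSMUSG00000021508, chr13:56288643-56296551, minus strand), a chemokine that names the other FAP type, showed the widest range of the 10 markers. It stood at 642, 348 and 864 CPM in WT, 402, 129 and 379 CPM in Bap1KO, 35.1, 32.0 and 11.5 CPM in Smn1OE and 81.0, 41.1 and 20.7 CPM in Smn1OE_K186R. Its highest group mean was 23.6 times its lowest. All SMN libraries lay below all others, and replicate 2, from batch B, was lowest in both WT and Bap1KO. Against Bap1KO, Cxcl14 fell 11.5-fold in Smn1OE (-3.53 ± 0.61, adjusted p = 0.0016) and 6.37-fold in Smn1OE_K186R (-2.67 ± 0.58, adjusted p = 0.00573). Compared with WT it fell 23.5-fold and 13-fold (-4.56 and -3.70, adjusted p = 0.000156 and 0.000448). Without Smn1OE_K186R replicate 1, the Smn1OE_K186R values were -3.30 against Bap1KO and -4.32 against WT. Between Bap1KO and WT, Cxcl14 differed by -1.03 ± 0.55 (adjusted p = 0.262), with overlapping libraries, and was called with no filter (adjusted p = 0.0304) and with the batch block.

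Tcf7l2 (ENSMUSG00000024985, chr19:55741820-55933654, plus strand), a TCF/LEF transcription factor that answers to Wnt signals and is used as a marker of muscle connective tissue fibroblasts, was the steadiest of the 10. It stood at 24.8, 24.5 and 24.9 CPM in WT, 40.4, 35.5 and 36.3 CPM in Bap1KO, 26.6, 26.4 and 22.5 CPM in Smn1OE and 29.6, 34.0 and 25.7 CPM in Smn1OE_K186R. All Bap1KO libraries lay above all others. Tcf7l2 rose by 0.60 ± 0.11 in Bap1KO against WT (1.51-fold, adjusted p = 0.00626) and fell by 0.57 ± 0.11 in Smn1OE against Bap1KO (adjusted p = 0.00223). Smn1OE and WT differed by 0.02 (adjusted p = 0.87). The fall of 0.33 in Smn1OE_K186R against Bap1KO (adjusted p = 0.0309) was lost in a fit of these 2 groups alone and without Bap1KO replicate 1 or 3 or Smn1OE_K186R replicate 1 or 3 (highest adjusted p = 0.106). Between Smn1OE_K186R and WT, Tcf7l2 differed by 0.27 (adjusted p = 0.0515), which DESeq2 (0.0281), its size factors (0.0287), limma's voom (0.0474) and a fit without Smn1OE_K186R replicate 3 (0.0146) called.

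In Bap1KO against WT, 3 of the 10 markers passed the test, Pdgfra lower and Tcf7l2 and Pcolce2 higher, beside 9.72% of all tested genes. This count was higher in some other fits, and stayed at 3 with DESeq2 size factors and without each library of the 2 groups. With the media batch as a block, 8 of 9 markers tested passed (Dpp4 was not tested there), beside 33.9% of all genes in that fit. Pdgfra, Cd34, Osr1, Mfap5, Cxcl14 and Ly6a were lower and Tcf7l2 and Pcolce2 higher. Within each of the 3 batches, Bap1KO was below WT for 8 of the 10 markers and above it for Tcf7l2 and Pcolce2, beside 30.7% of all tested genes below in all 3 and 28.2% above. Of the 8, Dpp4 rests on 2 to 12 reads and Pi16 has a batch at -0.06. Blocked on the batch, Cd34 differed by -0.91 ± 0.08 (adjusted p = 7.83e-05), Cxcl14 by -1.08 ± 0.12 (adjusted p = 0.000213), Mfap5 by -0.60 ± 0.05 (adjusted p = 0.000104), Osr1 by -0.60 ± 0.06 (adjusted p = 0.000134) and Ly6a by -0.31 ± 0.07 (adjusted p = 0.0113). These fold changes hardly moved in the blocked fit while their standard errors shrank. That fit holds only the libraries of the 2 groups, so it differs from the main fit by more than the block. A fit of these 2 groups without the block called 6 markers and 1639 genes in all, beside 1614 genes in the main fit. For Cxcl14 the pairs of batches A, B and C gave -0.67, -1.43 and -1.19 on the log2(CPM + 0.1) scale. Pi16 gave -0.06, -1.27 and -0.33 and was not called with the block (-0.51 ± 0.24, adjusted p = 0.137).

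**Figure D2:**
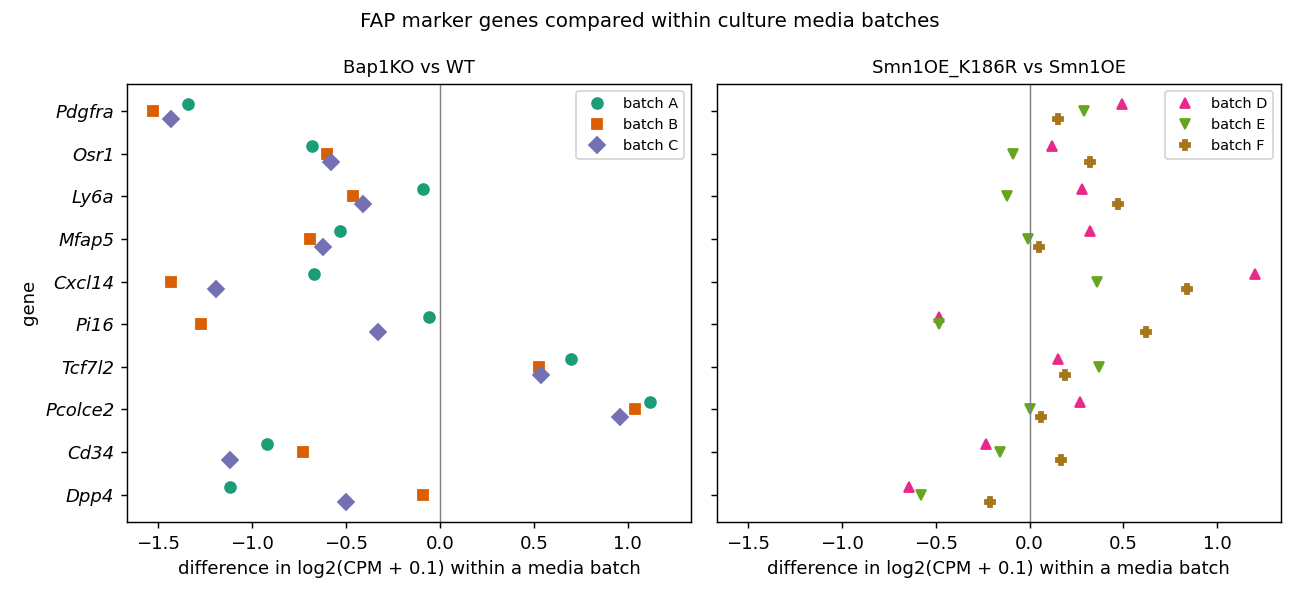
Difference of each marker between 2 libraries of the same culture media batch, in log2(CPM + 0.1), for Bap1KO against WT (left, batches A to C) and Smn1OE_K186R against Smn1OE (right, batches D to F), with 1 point per batch. On the left all 3 points lie on the same side of 0 for every marker. On the right this holds for Pdgfra, Cxcl14 and Tcf7l2 above 0 and for Dpp4 below 0. Of all tested genes, 28.2% lay above and 30.7% below 0 in all 3 batches on the left. On the right these shares were 17.9% and 16.3%.

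Against Bap1KO, 8 of 10 markers passed in Smn1OE, 7 lower and Cd34 higher, where 33.5% of all genes passed. In Smn1OE_K186R 7 of 10 passed, 6 lower and Cd34 higher, where 32.6% of all genes passed. Both comparisons share the Bap1KO libraries. The median log2 fold change of the 10 markers was -0.79 in Smn1OE and -0.57 in Smn1OE_K186R, beside -0.01 over all tested genes in each. Against WT, 7 of 10 passed in each SMN group, 6 lower and Pcolce2 higher, where 50.4% of all genes passed in Smn1OE and 50.5% in Smn1OE_K186R. The median over the markers was -1.4 in Smn1OE and -1.5 in Smn1OE_K186R there.

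**Figure D3:**
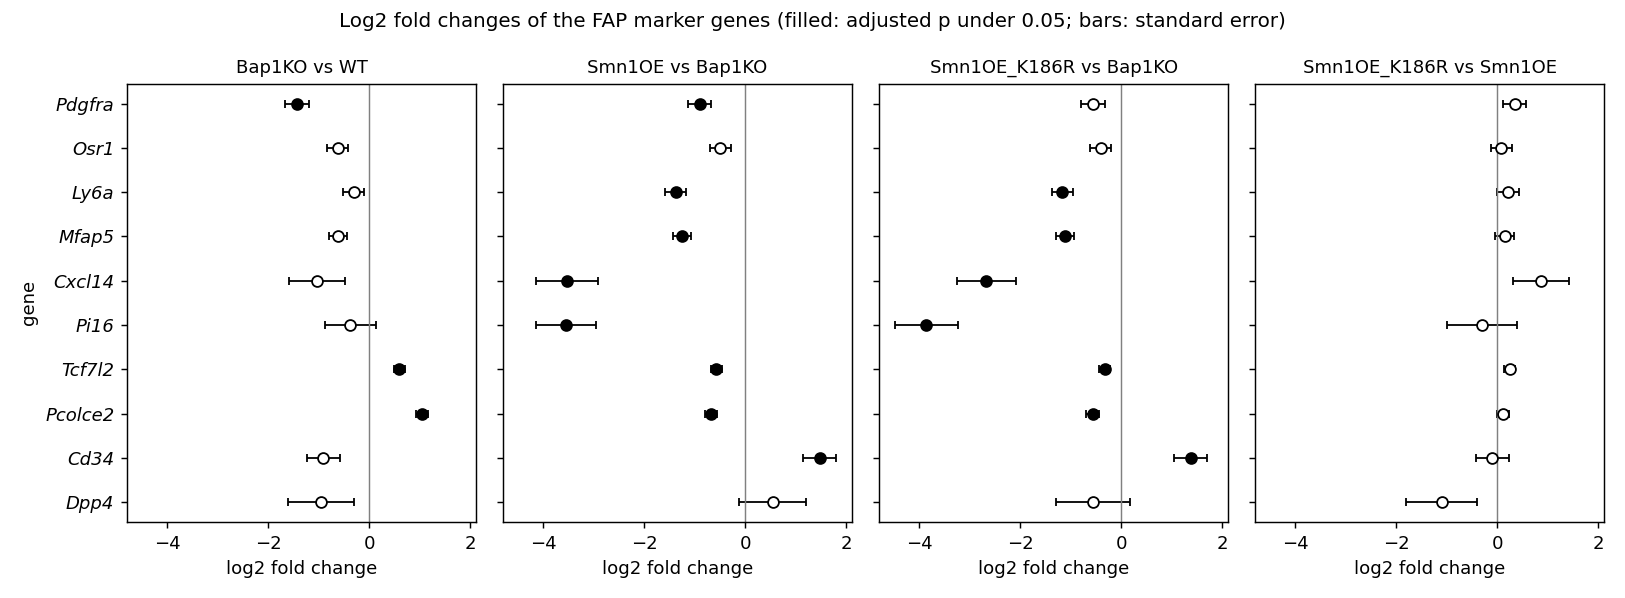
Log2 fold change of each marker in 4 of the comparisons, with bars for the standard error and filled points for an adjusted p under 0.05. Cxcl14 and Pi16 lie farthest below 0 in both SMN groups against Bap1KO, Cd34 is the 1 marker called above 0 there, and no marker is called between the SMN groups.

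Between the SMN groups, no marker and 0% of the tested genes passed with edgeR, and DESeq2 also called none. At an unadjusted p under 0.05 there were 388 of 16597 genes (2.34%) and 1 of the 10 markers. This was Tcf7l2, at 0.24 ± 0.11 higher in Smn1OE_K186R. With the media batch as a block, 0.221% of genes passed, 35 in all, and Cxcl14 was among them. It was higher in Smn1OE_K186R by 0.80 ± 0.13 (adjusted p = 0.0325). Batches D, E and F gave differences of 1.20, 0.36 and 0.84 for Cxcl14, all above 0. Pdgfra was also higher in 3 of 3 batches (0.49, 0.29 and 0.15), but was not called with the block (0.31 ± 0.09, adjusted p = 0.283). Of all tested genes, 17.9% were higher and 16.3% lower in all 3 batches. Without the block, Cxcl14 differed by 0.86 ± 0.56 (adjusted p = 0.997).

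Variation within groups also ran together across several markers. Replicate 3 of Smn1OE, from batch F, had the lowest value for 9 of the 10 markers, and replicate 3 of Smn1OE_K186R for 7 of 10. In WT, replicate 2, from batch B, was lowest for 7 of 10. The share of all tested genes with the same order was not counted. On principal component 1 of all tested genes, these replicates 3 lay at 76.9 and 67.7, and the other SMN libraries at 41.3 to 59. WT replicate 2 lay at -58.1, and the other WT libraries at -81.4 and -75.3. The counts are thus not shown to be particular to the markers. Pcolce2 went the other way in batch F, where it was highest in both SMN groups (20.7 and 21.5 CPM). Deviations from the group means, over 12 libraries that share batches in pairs, gave r = 0.97 between Pdgfra and Cxcl14, 0.87 between Mfap5 and Cxcl14, 0.83 between Cd34 and Osr1 and 0.81 between Tcf7l2 and Osr1. Pcolce2 had r from -0.85 with Dpp4 to -0.18 with Pi16 and was below 0 with every other marker. These values describe these libraries, and the Dpp4 values rest on few reads. The spread between replicates that the edgeR model assigned (biological coefficient of variation) was 0.103 for Tcf7l2 and 0.118 for Pcolce2, and 0.45 for Pi16 and 0.46 for Cxcl14, larger than for 90.8% and 91.3% of tested genes.

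**Figure D4:**
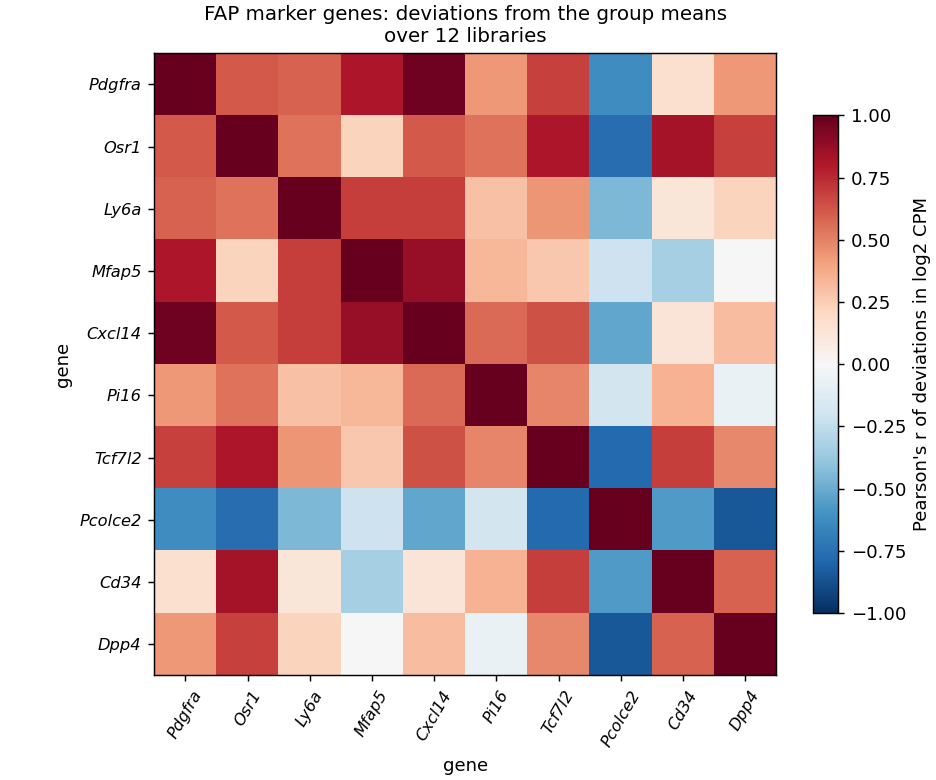
Pearson's r between markers of their deviations from the group mean of log2 CPM, over 12 libraries; red is above 0 and blue below 0. Pdgfra, Mfap5 and Cxcl14 deviate together (r of 0.81 to 0.97), and Pcolce2 deviates against all other markers.

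Over the 12 libraries, the 3 genes whose log2 CPM followed each marker most closely were sought among all tested genes. Cxcl14 was followed by Ackr3, a scavenging chemokine receptor (r = 0.996), by Sned1 (0.995) and by P4ha2, a collagen prolyl hydroxylase subunit (0.994). Pi16 was followed by Kptn (r = 0.994), Mfap5 by Gpr153 (0.989), Ly6a by Mypop (0.989), Osr1 by Apobec3 (0.991) and Pdgfra by Slc44a1 (0.986). These values are read beside the division of the libraries by vector: between 663 and 1252 genes reached an r above 0.9 with each of these 6 markers. For the others such genes were few. Cd34 had 6, led by the imprinted gene Peg3 (r = 0.947) and its neighbour Usp29 (0.934). Pcolce2 had 7, led by Ahnak2 (0.945), and Tcf7l2 had 5, led by Faf2 (0.928). Dpp4 had none, its closest being Tbx4 (0.891).

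Relatives of the markers were counted as well, on lists put together with earlier results of these data known. The lists share genes, among them Pdgfrb, Fbn1 and Ly6c1, so their counts are not separate. Their counts are read beside 9.72% of all genes called in Bap1KO against WT (33.9% with the media batch as a block), 33.5% in Smn1OE against Bap1KO and 32.6% in Smn1OE_K186R against Bap1KO. Of 6 PDGF ligands and receptors, 1 passed lower in Bap1KO against WT and 2 lower in Smn1OE against Bap1KO. With the block, 4 passed lower and 1 higher in Bap1KO against WT. Pdgfrb, the other PDGF receptor, had a WT mean of 436 ± 16.7 CPM and a Bap1KO mean of 376 ± 28.9 CPM and fell to 194 ± 5.37 CPM in Smn1OE, by 0.95 against Bap1KO (adjusted p = 0.000129). Pdgfrl, a receptor-like protein, fell by 1.94 in Bap1KO against WT (adjusted p = 0.0153) and by 2.35 in Smn1OE against Bap1KO (adjusted p = 0.00301). The first Pdgfrl call was lost without WT replicate 1 or Bap1KO replicate 3, and its value was -2.64 without Bap1KO replicate 1. The second was -1.64 without that library. No PDGF ligand passed in these 2 comparisons without the block. With it, Pdgfc (-0.45, adjusted p = 0.00386) and Pdgfd (-0.32, adjusted p = 0.00512) were lower and Pdgfa (0.31, adjusted p = 0.00388) higher in Bap1KO than in WT.

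Relatives of the 2 genes that rose in Bap1KO followed no common direction. Of 4 procollagen C-proteinase genes none passed in Bap1KO against WT, and 2 passed higher and 1 lower in Smn1OE against Bap1KO. Pcolce, the paralog of Pcolce2, had a WT mean of 985 ± 52.3 CPM and a Bap1KO mean of 749 ± 91.2 CPM (-0.39, adjusted p = 0.0552) and fell to 342 ± 33.2 CPM in Smn1OE (by 1.13 against Bap1KO, adjusted p = 0.000158). Of the proteinase genes, Tll1 rose by 1.87 in Smn1OE against Bap1KO (adjusted p = 0.00157), and Bmp1 stood at 513 to 535 CPM in the mean of WT, Bap1KO and Smn1OE. None of the 3 other TCF/LEF genes passed in Bap1KO against WT. With the media batch as a block, Tcf7 was higher (0.74, adjusted p = 0.0363), while Tcf7l1 (-0.27, adjusted p = 0.00868) and Pcolce (-0.38, adjusted p = 0.00139) were lower. In Smn1OE against Bap1KO, Tcf7l1 fell by 0.78 (adjusted p = 4e-04) and Lef1 rose by 1.53 (adjusted p = 0.0331), the latter lost when any of 4 libraries was left out (Bap1KO replicate 1 or 3, Smn1OE replicate 2 or 3).

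Among relatives of the surface markers, 1 of 5 tested Ly6 genes, 1 of 2 CD34 family genes and 1 of 4 DPP4 family genes passed in Bap1KO against WT, all lower. With the block these were 3 of 5 and 1 of 2, all lower, and 1 lower and 2 higher of 4. Podxl2, a CD34 family sialomucin, fell by 0.92 in Bap1KO against WT, from 19.7 ± 0.451 to 10.4 ± 1.1 CPM (adjusted p = 0.00396). Fap, the fibroblast activation protein gene of the DPP4 family, fell by 2.87 in Bap1KO, from 1.3 ± 0.0784 to 0.175 ± 0.0298 CPM (adjusted p = 0.00142), and stood at 0.149 ± 0.0691 CPM in Smn1OE. Ly6c1 fell by 1.22 in Smn1OE against Bap1KO (adjusted p = 0.0158), a call lost without Bap1KO replicate 1 or Smn1OE replicate 3. Of 5 further microfibril genes, 1 passed lower in Bap1KO against WT (3 with the block) and 4 in Smn1OE against Bap1KO. The first, Mfap2, fell by 1.93 in Bap1KO against WT, from 30.9 ± 5.18 to 8.07 ± 4.35 CPM (adjusted p = 0.00626). Osr2, the paralog of Osr1, fell by 1.42 in Smn1OE against Bap1KO (adjusted p = 0.00684).

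The wider lists of FAP states held genes called in both directions. Of 28 further genes of the Dpp4 and Pi16 type, 14 passed lower and 7 higher in Smn1OE against Bap1KO, with a median of -0.53. In Smn1OE_K186R against Bap1KO 7 passed lower and 4 higher, with a median of -0.25. Over all tested genes, 17.7% passed lower and 15.8% higher in the first comparison, and 16.5% lower and 16.1% higher in the second. Cd248 fell by 1.44 (adjusted p = 2.51e-05) and Prg4, lubricin, by 2.22 (adjusted p = 0.00071), while Procr rose by 1.33 (adjusted p = 0.00709) and Gap43 by 1.59 (adjusted p = 0.00135). Of 16 further genes of the Cxcl14 type, 10 passed lower and 1 higher in Smn1OE (median -0.86), and 8 lower and 1 higher in Smn1OE_K186R (median -0.99). Gdf10, a BMP family ligand, fell by 3.33 (adjusted p = 0.00463) to 2 to 8 reads per Smn1OE library, with -2.55 when Bap1KO replicate 1 was left out, and Hmcn2, a hemicentin, rose by 1.4 (adjusted p = 0.00328). Of 14 tested genes shared by FAPs and other mesenchymal cells, 9 passed lower and none higher in Smn1OE (median -1.04), and 8 lower and none higher in Smn1OE_K186R (median -0.97). Col1a1 fell by 1.57, from 9440 ± 2260 to 3180 ± 844 CPM (adjusted p = 0.000645), and Meox2, a mesenchymal homeobox gene, by 3.05 (adjusted p = 0.000997). In Bap1KO against WT these 3 lists had 5, 1 and 0 genes called. With the media batch as a block they had 4 higher and 12 lower of 27, 1 higher and 7 lower of 16, and 10 lower of 14.

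Markers of other cell types were measured in the same libraries, and their part in the results was not tested. Pax7, Myod1 and Myf5 of the muscle lineage were at 0 in every WT and Bap1KO library, and the 6 muscle lineage markers summed to 1.45 to 4.81 CPM over the 12 libraries. Cd3e of T cells was at 0 in all 12, and the 5 macrophage and leukocyte markers summed to 11.4 to 17 CPM in WT, 18.9 to 27.1 CPM in Bap1KO and 16 to 21.7 CPM in the SMN groups. Its members were called in opposite directions in Smn1OE against Bap1KO, Cd68 higher (1.15, adjusted p = 0.00308), Ptprc higher (13 to 20 reads per library against 0 to 1, adjusted p = 0.00432) and Csf1r lower (-1.27, adjusted p = 0.00758). The tenocyte markers Scx, Tnmd, Mkx and Fmod summed to 237 to 415 CPM in WT, 184 to 454 CPM in Bap1KO and 25.9 to 59.3 CPM in the SMN groups. Most of this sum was Fmod, which fell by 3.94 in Smn1OE against Bap1KO (adjusted p = 0.000104), as did Tnmd by 2.43 (adjusted p = 0.000646). Mkx differed there by -0.04 (adjusted p = 0.914). Scx was higher in Bap1KO than in WT (1.08, adjusted p = 0.0128) and differed by -0.39 in Smn1OE against Bap1KO (adjusted p = 0.197). The 5 pericyte and smooth muscle markers summed to 124 to 176 CPM in WT, 99.3 to 161 CPM in Bap1KO and 146 to 273 CPM in the SMN groups. Most of this sum was Myh11, with means of 128, 116, 198 and 204 CPM in WT, Bap1KO, Smn1OE and Smn1OE_K186R. In Smn1OE and WT, the means were 0.991 and 4.93 CPM for Kcnj8 and 0.586 and 1.77 CPM for Abcc9. Those of Rgs5 were 2.35 and 1.62 CPM, and those of Notch3 9.91 and 9.52 CPM. Against WT, each SMN group had 2 of the 5 called lower and 0 higher, and against Bap1KO 2 higher and 0 lower. Over all tested genes, 26.6% in Smn1OE and 26.5% in Smn1OE_K186R were called lower against WT. Against Bap1KO, 15.8% and 16.1% of all tested genes were called higher. The 4 Schwann cell markers summed to 3.97 to 14 CPM and the 4 adipocyte markers to 9.77 to 33 CPM over the 12 libraries. Vcam1, which the sort selected against, was at 64.1 to 176 CPM in the cultured cells.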

How the data were processed

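RNA of 12 cultures was sequenced as paired-end TruSeq libraries, per the labels' protocols. The deposited files hold raw read counts per Ensembl gene, which the authors made with CASAVA 1.8.2, cutadapt 1.4.2, STAR 2.6.1 and HTSeq 0.9.1 on GRCm39, per the submitters' processing notes, which also name DESeq2. The annotation release and strand setting are not given in the sources used here, so reads of overlapping genes cannot be told apart. Annotated genes that overlap a marker's span had 0 to 73 counts in all over the 12 libraries. The 5 closing rows that name no gene (11.1 to 14.6% of the records) stayed out of library sizes and tests.

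Symbols, positions and exon lengths were taken from GENCODE M21 (GRCm38), which matched 55154 of 55335 IDs. Counts were fitted in R 4.3.3 with edgeR 4.0.16 (TMM, filterByExpr with a minimum count of 10, a single quasi-likelihood model with 1 coefficient per group for the 12 libraries, 8 residual degrees of freedom). Tests were two-sided with Benjamini-Hochberg adjustment over 16597 genes and a threshold of 0.05. The fit was tested on simulated data with the same spread for every gene and without media batches. That test does not cover markers with few reads or a wider spread. An exact permutation test of 3 against 3 libraries cannot give a p below 0.1. Alternatives were DESeq2 1.42.0 and its size factors, no filter, only the 2 groups compared, and leaving out each library. Others were limma 3.58.1 (voom) with a random effect for media batch (estimated correlation 0.45), and the media batch as a block. The blocked fit held only the 2 groups compared, with its own filter and its own estimate of the spread.

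The labels give the same media batch to same-numbered libraries of WT and Bap1KO, and of the SMN groups, and their deviations from the group means correlated over genes at 0.24 to 0.43. Blocked values are therefore printed for the markers whose call they change and for counts of the lists. All 10 markers are named. Of each list of relatives, the genes with the lowest adjusted p in Bap1KO against WT or Smn1OE against Bap1KO, and those against the list's direction, could be named. Pdgfd and single markers of other cell types were named after their values were seen. The markers and lists were chosen with earlier results of these data known.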

Additional observations from a re-analysis of the deposited data

How the results depend on the processing

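Depth limits Dpp4 (1 to 12 reads per library) and Pi16 in the SMN groups (4 to 19 reads), and for the other markers the spread between 3 libraries sets the error. Of the 652 marker values recomputed under alternatives, 603 kept direction and side of the threshold, 9 lost the call, 28 gained it and 12 changed sign. Of 451 values of the called relatives, 51 lost the call and none changed sign.

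In Bap1KO against WT, 3 markers and 1614 genes passed. With DESeq2 these were 5 and 2560, and with the replicate block 8 and 5207 (1587 of them among the 1614). With no filter they were 7 and 1904, and in a fit of these 2 groups 6 and 1639. With DESeq2 size factors in edgeR they were 3 and 1683. Leaving out each library gave 3 markers every time and 535 to 1457 genes. In Smn1OE against Bap1KO the gene count was 5567, and 3512 to 5627 without each library. In Smn1OE_K186R against Bap1KO it was 5416, or 3462 with only the 2 groups, and 3385 to 5309 without each library. Between the SMN groups the replicate block moved the counts from 0 to 1 marker and 35 genes. The cause was not tested.

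Changes of sign were found only for values that were not called. Pi16 in Bap1KO against WT ranged from -0.93 to 0.05 (without Bap1KO replicate 2) when libraries were left out. Tcf7l2 in Smn1OE against WT ranged from -0.02 to 0.09, and was -0.02 and -0.01 without Smn1OE replicates 1 and 2. Between the SMN groups the ranges were -0.04 to 0.39 for Ly6a, -0.51 to 0.36 for Cd34, -0.63 to 0.22 for Pi16, -0.09 to 0.25 for Mfap5, -0.01 to 0.24 for Pcolce2 and -0.14 to 0.34 for Osr1. There, without Smn1OE_K186R replicate 1, Ly6a was -0.04, Mfap5 -0.09 and Cd34 0.06; Cd34 was 0.07 without Smn1OE_K186R replicate 3 and 0.36 without Smn1OE replicate 2, where Pi16 was 0.22. Pcolce2 was -0.01 without Smn1OE_K186R replicate 3, and Osr1 was -0.06 without Smn1OE_K186R replicate 2 and -0.14 without Smn1OE replicate 3.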
